A study of Drosophila melanogaster with 31 samples.

Results

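The genes described here encode the proteins of the cytosolic ribosome of Drosophila melanogaster. They were taken by symbol, RpL, RpS or RpLP followed by a digit, and symbols containing "like" or "Psi" were left out. Of 92 symbols that matched, 5 held "like", which left 87 of the 17373 genes in the count table: 50 of the large and 37 of the small subunit. Enough counts for a test were found for 83 of them, 48 large and 35 small. The other 4, RpL10Aa, RpL37b, RpS10a and RpS28a, had at most 7 counts in any library and were not tested.

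Each cytosolic ribosome holds 1 copy of nearly every one of these proteins, and their genes are among the most heavily transcribed in growing tissue. A fly with a single working copy of many of these genes is a Minute: it develops slowly, its bristles are thin, and in a mosaic tissue its Minute cells are outgrown and eliminated by wild-type neighbours, a process called cell competition. Minute cells mount a response that depends on the transcription factor Xrp1 and on its partner encoded by CG6272. The protein RpS12 is known to be required for that response.

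The tissue was the wing imaginal disc, the larval epithelium that makes the adult wing and notum, dissected by hand from pools of larvae. The labels give larval instar 3 for every group, at day 5 and at day 9. RNA was sequenced from 18 libraries in 6 groups of 3. All larvae, controls included, carried y w ubxflp over y w, where FLP recombinase is driven by Ultrabithorax sequences, and a chromosome 3 with FRT82B, a Minute allele labelled M(3) and the GFP marker ubiGFP. The other chromosome 3 carried FRT82B with cicQ474X wts149 in cic wts discs at day 9 and at day 5, with wts149 in wts discs at day 9 and at day 5, with cicQ474X in cic discs at day 5, and alone in control discs at day 5. Recombination at FRT82B makes clones homozygous for the chromosome without the Minute allele, beside cells that are still heterozygous for it. The discs were therefore mosaics of cells with and without a ribosomal protein mutation, in every group. The labels do not name the gene that M(3) affects or the share of cells in clones, and no day 9 control or cic discs were analysed here. Capicua (cic) is a repressor that Ras/EGFR signalling relieves from its target genes. Warts (wts) is a kinase of the Hippo pathway and holds the growth co-activator Yorkie in check. In bulk tissue of this kind, fewer cells of a type and less RNA per cell cannot be told apart.

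Libraries held 14201662 to 26217144 counts, and 9004 genes were tested. Summed levels of 18 wing disc marker genes lay between 3059 and 4238 CPM (counts per 1000000 of the TMM-scaled library size) in every library. Several libraries stood apart. Control replicate 3 held 6137 CPM of salivary gland genes, against 3.634 and 257 CPM in control replicates 1 and 2. Control replicate 2 held 2099 CPM of differentiated muscle genes, against 976.4 to 1399 CPM in every other library. In cic wts discs at day 5, replicate 1 held 1766 CPM of hemocyte genes and replicate 2 held 622.9 CPM of fat body genes. Replicate 3 of that group held 196.5 CPM of hemocyte genes and 3.291 CPM of fat body genes. Fat body genes also reached 220.1 CPM in wts day 9 replicate 2. Nothing in the labels says that the pools came from separate crosses, and p-values reflect only the spread from pool to pool, which may be technical. A gene is called here when edgeR's quasi-likelihood test over all 9004 genes gave a Benjamini-Hochberg adjusted p under 0.05.

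The family's share of all counts was lower in cic discs than in wts or cic wts discs of the same age, without overlap, and control discs lay between their means. The 87 genes made up 11.35%, 10.9% and 12.31% of counts in day 9 cic wts discs, and 11.35%, 10.21% and 10.84% in day 9 wts discs. At day 5 the shares were 12.01%, 10.97% and 11.74% in cic wts discs, 11.73%, 11.46% and 11.97% in wts discs, 9.856%, 10.71% and 9.958% in cic discs, and 11.15%, 11.12% and 9.978% in control discs. All 3 wts libraries of day 5 lay above all 3 control libraries, while cic wts overlapped control through replicate 2 and cic overlapped control through control replicate 3. Summed over the family, levels averaged 116800 ± 7244 CPM in cic wts and 109600 ± 6491 CPM in wts discs at day 9 (SD, n = 3 each). At day 5 they averaged 116700 ± 5830 CPM in cic wts, 119100 ± 3257 CPM in wts, 99320 ± 3923 CPM in cic and 104800 ± 8128 CPM in control discs (SD, n = 3 each). The balance of the subunits was similar in all groups: the summed CPM of small subunit genes divided by that of large subunit genes averaged between 0.614 and 0.627 over the 6 groups.

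**Figure D1:**
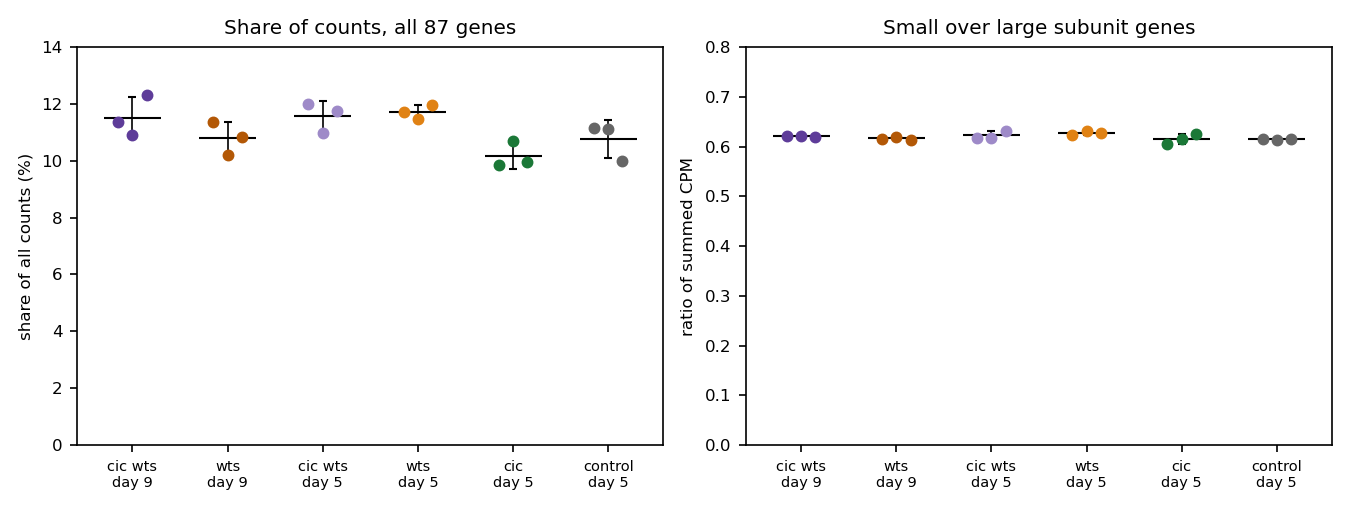
Left, share of all counts (%) taken by the 87 cytosolic ribosomal protein genes in each library; right, summed CPM of small subunit genes divided by that of large subunit genes; points are libraries, lines are group means and bars are SD (n = 3). The 3 wts libraries of day 5 lie between 11.46% and 11.97%, the 3 control libraries between 9.978% and 11.15%, and the subunit ratio lies near 0.62 in every group.

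Loss of wts went with a modest rise of part of the family. In wts against control discs at day 5, 14 of the 83 genes rose and 0 fell. That is 16.9% of the family higher, against 10% of all genes tested called higher and 8.16% called lower. The median log2 fold change was 0.16 over the family, with quartiles of 0.12 and 0.22, and 0.00 over all genes tested. Values were above 0 for 79 of the 83 genes. In 43 genes all 3 wts libraries lay above all 3 control libraries and in 0 genes below, against 19.9% and 17% of all genes tested. Large and small subunit genes both contributed, and the 14 genes lay on chromosomes X, 2, 3 and 4.

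RpL15, a protein of the large subunit (3L:27267255-27268445, Release 6 coordinates), had 1897, 2004 and 2286 CPM in wts discs, against 1383, 1521 and 1298 CPM in control discs. The wts libraries all lay above the control libraries, and the log2 fold change of 0.56 ± 0.09 (SE; edgeR adjusted p = 0.00058) was the largest called in the family in that comparison. RpL5, the 5S rRNA-binding protein of the large subunit (2L:22532279-22536884), had 2932, 3071 and 3285 CPM in wts discs, against 2394, 2448 and 2088 CPM in control discs. It rose by 0.42 ± 0.07 on the log2 scale (SE; edgeR adjusted p = 0.00106), again without overlap. Both genes lie outside the right arm of chromosome 3, which holds the FRT82B site.

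Small subunit genes were among the called genes too. RpS3A, on chromosome 4 (4:65225-67207), had 2880, 3203 and 3470 CPM in wts discs, against 2380, 2470 and 2282 CPM in control discs, a log2 fold change of 0.42 ± 0.08 (SE; edgeR adjusted p = 0.00161). RpS9 (3L:9509793-9511531) had 309.5, 326.6 and 367.3 CPM in wts discs, against 256.6, 253.7 and 235.8 CPM in control discs, a log2 fold change of 0.43 ± 0.09 (SE; edgeR adjusted p = 0.00343). RpS20 (3R:20822181-20823356) had 1053, 965.3 and 1062 CPM in wts discs, against 854.7, 859.4 and 742.4 CPM in control discs, a log2 fold change of 0.33 ± 0.06 (SE; edgeR adjusted p = 0.00252). None of the 3 overlapped between the groups. RpL15, RpL5, RpS3A, RpS9 and RpS20 were the 5 of the 14 genes whose call held when each library of the 2 groups was left out in turn. The other 9 were RpL12, RpL21, RpL36A, RpL37A, RpS3, RpS25, RpS27A, RpS28b and RpS29, with log2 fold changes between 0.20 and 0.36.

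Part of the family was higher in the double mutant as well. Against control discs of day 5, 18 of the 83 genes rose in cic wts discs and 0 fell, 21.7% of the family, against 11.3% of all genes tested called higher and 11.2% called lower. The median log2 fold change was 0.14, against 0.01 over all genes tested. All 3 cic wts libraries lay above all 3 control libraries in 32 genes and below them in 1, against 18.4% and 17.3% of all genes tested. This comparison and the one of wts discs use the same control libraries. RpL15 had 1831, 2064 and 1872 CPM in cic wts discs, a log2 fold change over control of 0.46 ± 0.09 (SE; edgeR adjusted p = 0.00173). RpL5 had 2879, 3089 and 3017 CPM in cic wts discs, and RpS3A had 3057, 3268 and 3028 CPM. Those libraries again lay above all controls, and the log2 fold changes were 0.37 ± 0.07 and 0.39 ± 0.08 (SE; edgeR adjusted p = 0.00183 and 0.00196). Of the 18 calls, 7 held whichever library was left out: the 5 genes named above, RpS27A and RpS29. In the same comparison 8 of 12 differentiated muscle genes fell and 0 rose (median log2 fold change -2.59), 9 of 18 wing disc genes fell and 2 rose (median -0.54), and all 7 salivary gland genes fell. In wts against control 1 muscle gene, 4 wing disc genes and all 7 salivary gland genes fell, and 1 wing disc gene rose. Whether these differences bear on the family was not tested.

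The control library with salivary gland genes, replicate 3, had the lowest level of RpL15, RpL5, RpS3A, RpS9 and RpS20 among the controls. Leaving it out gave 6 genes in wts against control and 7 in cic wts against control. The medians were then 0.11 and 0.07. Leaving out control replicate 3 with cic wts day 5 replicate 1 gave 6 and 10 genes, and with cic wts day 5 replicate 2 gave 6 and 4 genes. In wts against control, the count was also 5 without wts replicate 3, 8 without wts replicate 1 and 8 without control replicate 1. In cic wts against control it was 11 without cic wts replicate 2. All of these genes were higher than in control discs. The share of all genes called was not counted in these fits, so whether the family still exceeded it is not known. The part of salivary gland RNA in the counts was not tested.

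**Figure D2:**
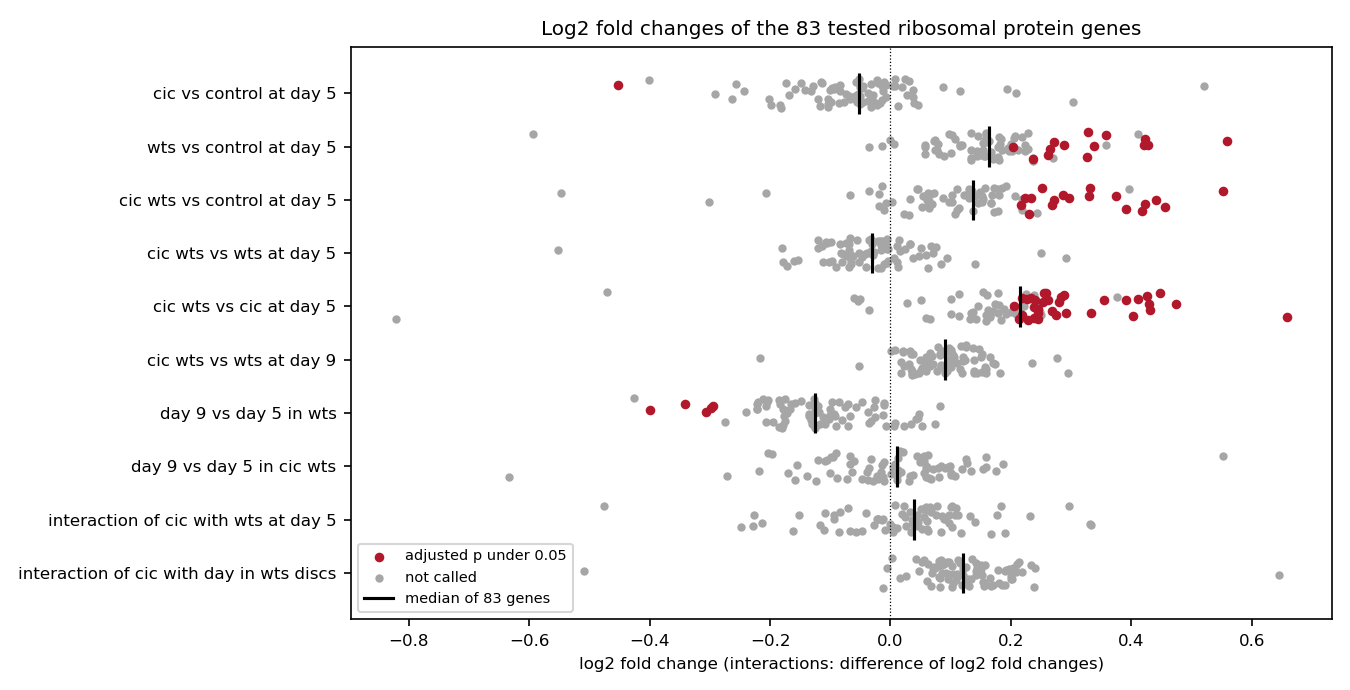
Log2 fold changes of the 83 tested ribosomal protein genes in each comparison (for the bottom rows, the difference between fold changes that tests the interaction); each point is a gene, red points have an adjusted p under 0.05 and the black bar is the family median. The points lie mostly right of 0 in wts against control (median 0.16), cic wts against control (0.14) and cic wts against cic (0.21), and mostly left of 0 for day 9 against day 5 in wts discs (-0.12).

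With cic alone lost, RpS3 was the one member called. In cic against control discs at day 5, 0 of the 83 genes rose and 1 fell, 1.2% of the family. Of all genes tested, 0.955% were called higher and 0.677% lower. A single call is near that share and says little about the family. The median log2 fold change was -0.05, against 0.00 over all genes tested, and 65 of the 83 values lay below 0. All 3 cic libraries lay below all 3 control libraries in 7 genes and above them in 0, against 6.41% and 5.81% of all genes tested. The 7 genes are also near the share over all genes.

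The gene that fell was RpS3, a protein at the mRNA entry channel of the small subunit (3R:23358812-23360207). It lies on the arm that carries FRT82B, and RefSeq lists M(3) Minute names among its synonyms. RpS3 had 896.2, 895.8 and 1149 CPM in cic discs, against 1352, 1417 and 1253 CPM in control discs. The groups did not overlap, and the level was 0.731 of that in control (log2 fold change -0.45 ± 0.10, SE; edgeR adjusted p = 0.0333). That call held in 2 of the 6 fits that left out 1 library, those lacking replicate 3 of cic or of control discs, with adjusted p between 0.00364 and 0.179. In every other group RpS3 was higher than in cic discs: 1640, 1468 and 1804 CPM in cic wts and 1590, 1494 and 1543 CPM in wts discs of day 9, and 1562, 1401 and 1680 CPM in cic wts and 1691, 1661 and 1694 CPM in wts discs of day 5. Against control, RpS3 rose by 0.33 ± 0.10 on the log2 scale in wts discs (SE; edgeR adjusted p = 0.0352), a call that held in 1 of the 6 fits that left out 1 library. In cic wts discs its log2 fold change over control was 0.21 ± 0.10 (SE; edgeR adjusted p = 0.153).

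RpS3 had the lowest log2 fold change of the 83 members in cic against control discs. A low ratio of RpS3 to its family in cic discs follows from that and is no further support. Its CPM divided by the median CPM of the other 82 tested members was 0.786, 0.734 and 0.984 in cic discs, against 1.05, 1.10 and 1.12 in control discs. The ratio averaged 1.23 ± 0.0565 in cic wts and 1.22 ± 0.0421 in wts discs at day 9, and 1.16 ± 0.0321 in cic wts and 1.24 ± 0.0289 in wts discs at day 5 (SD, n = 3 each). The ratio is not per transcript length, so only its differences between groups can be read. The lowest value outside cic discs was 1.05, and the highest in cic discs was 0.984. The same ratio for RpS12 was 0.543 to 0.627 in cic and 0.649 to 0.702 in control discs. RpS12 too was among the members with the lowest log2 fold changes, so its ratio is no further support either. For RpS3, the effect of cic in wts discs differed from that in discs without the wts mutation by 0.33 ± 0.14 on the log2 scale (SE; edgeR adjusted p = 0.286). That difference did not pass the threshold over all genes.

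**Figure D3:**
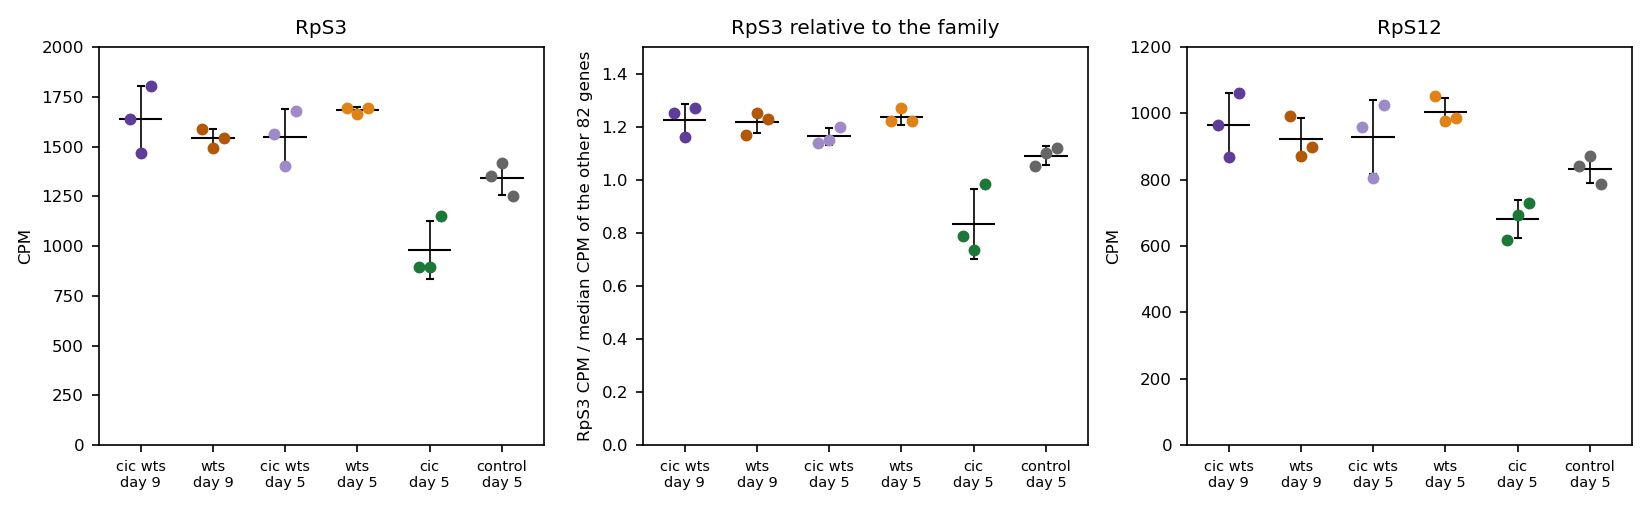
CPM of RpS3 (left), CPM of RpS3 divided by the median CPM of the other 82 tested ribosomal protein genes (middle) and CPM of RpS12 (right) in each library; lines are group means and bars are SD (n = 3). RpS3 lies between 895.8 and 1149 CPM in cic discs and between 1253 and 1417 CPM in control discs, and RpS12 between 619 and 731.1 CPM in cic discs and between 787.7 and 869.9 CPM in control discs.

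No other member with a Minute name was called in that comparison. RefSeq gives such a name to 25 of the 87 genes, and those with an M(3) name include RpL13A, RpL32, RpS3, RpS25 and RpS29 on 3R and RpL8 and RpL14 on 3L. In cic against control discs, those named besides RpS3 had log2 fold changes between -0.26 (RpL8) and 0.04 (RpS25), and none was called. Over the 19 tested members on 3R the median was -0.09, against -0.13 over the 14 on 3L, -0.04 over the 14 on X and -0.03 over the 18 on 2R.

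The next lowest values in cic against control discs belonged to RpL23A and RpS12, both on 3L. RpL23A, a protein near the exit of the large subunit's tunnel (3L:1666288-1668654), had 1491, 1501 and 1462 CPM in cic discs, against 2065, 2038 and 1780 CPM in control discs. The groups did not overlap, but the log2 fold change of -0.40 ± 0.12 was not called (SE; edgeR adjusted p = 0.125). RpS12 (3L:13023352-13024762) had 619, 693 and 731.1 CPM in cic discs, against 842.3, 869.9 and 787.7 CPM in control discs. These groups did not overlap either, at a log2 fold change of -0.29 ± 0.10 (SE; edgeR adjusted p = 0.219). In wts discs at day 5 RpS12 had 1052, 976.3 and 985.9 CPM, above every control library, at a log2 fold change of 0.27 ± 0.10 that was not called (SE; edgeR adjusted p = 0.0633).

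Genes of the Minute cell response were measured beside RpS3. Of 18 such genes 5 rose in cic against control discs and 0 fell, against 0.955% and 0.677% of all genes tested: CG6272, Dronc, Gadd45, GstE1 and GstE6. The list also held calls elsewhere. In wts against control 4 rose and 2 fell, against 10% and 8.16% of all genes tested. In cic wts against control 4 rose and 2 fell, against 11.3% and 11.2%. In cic wts against cic 2 rose and 6 fell, against 15% and 14.2%. For the effect of cic in wts discs minus that in discs without the wts mutation, 0 were higher and 3 lower, against 0.744% and 1.2%. GstE6, a glutathione S-transferase, had 44.4, 50.75 and 19.46 CPM in cic discs, against 8.106, 10.57 and 4.131 CPM in control discs (log2 fold change 2.32 ± 0.38, SE; edgeR adjusted p = 0.00406). CG6272 had 33.85, 48.35 and 26.63 CPM in cic discs, against 19.52, 18.25 and 17.16 CPM in control discs (log2 fold change 0.99 ± 0.17, SE; edgeR adjusted p = 0.00567). Xrp1 had 1247, 1030 and 697.6 CPM in cic discs, against 674.4, 902.3 and 529.4 CPM in control discs; its groups overlapped. Replicate 3 of cic discs had the highest RpS3 and the lowest Xrp1, CG6272 and GstE6 of the cic group. Replicate 3 of control discs had the lowest RpS3 CPM and also the lowest Xrp1, CG6272 and GstE6 of the control group. Divided by the median of the other members, RpS3 was highest in replicate 3 of both groups, at 0.984 and 1.12. Whether these levels are linked was not tested. The share of cells heterozygous for the Minute allele is not measured by these files, and its part in these values was not tested.

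Among the comparisons made, the one of cic wts with cic discs had the most members called; wts was not compared with cic. In cic wts against cic discs at day 5, 35 of the 83 genes rose and 0 fell, 42.2% of the family, against 15% of all genes tested called higher and 14.2% called lower. The median log2 fold change was 0.21, against 0.01 over all genes tested, and 77 of 83 values lay above 0. All cic wts libraries lay above all cic libraries in 45 genes and below them in 1, against 19% and 17.8% of all genes tested. The 35 genes comprised 10 of 14 tested on 3L, 9 of 19 on 3R, 8 of 17 on 2L, 4 of 18 on 2R, 3 of 14 on X and RpS3A on chromosome 4. Other marker lists moved in the same comparison. The roX genes, which male cells transcribe for dosage compensation, summed to 449.6, 1112 and 799.1 CPM in cic wts discs, against 289.1, 116.5 and 423.2 CPM in cic discs, and both were called higher. The labels do not give the sex of the larvae. Of 11 tested hemocyte genes 5 were called higher and 0 lower, but the groups overlapped in every one of them. The summed hemocyte list had 1766, 163.9 and 196.5 CPM in cic wts discs, against 171.8, 197.2 and 159.4 CPM in cic discs. Its rise thus lay in replicate 1. Of 18 wing disc genes 2 were called higher and 9 lower. The part of these differences in the family's values was not tested.

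RpS3 had the largest difference among the 35 called genes, 0.66 ± 0.10 on the log2 scale (SE; edgeR adjusted p = 0.000167), 1.58 times its level in cic discs. RpS20 had the lowest adjusted p of the family, with 1009, 1010 and 999.9 CPM in cic wts discs, against 731, 768.5 and 743.1 CPM in cic discs (0.43 ± 0.06, SE; edgeR adjusted p = 0.000119). Both groups were tight in RpS20 and did not overlap. RpS12 had 957.5, 804.5 and 1024 CPM in cic wts discs and rose by 0.45 ± 0.10 over cic discs (SE; edgeR adjusted p = 0.00251). Each of these calls held whichever library was left out, as did those of RpL3, RpL5, RpL15, RpL35, RpL37A, RpS3A, RpS27A and RpS29, 11 of the 35 in all. The count was 15 without cic wts replicate 1, without cic replicate 1 or without cic replicate 3, and 16 without cic wts replicate 3. The first of these libraries is the one with hemocyte genes.

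**Figure D4:**
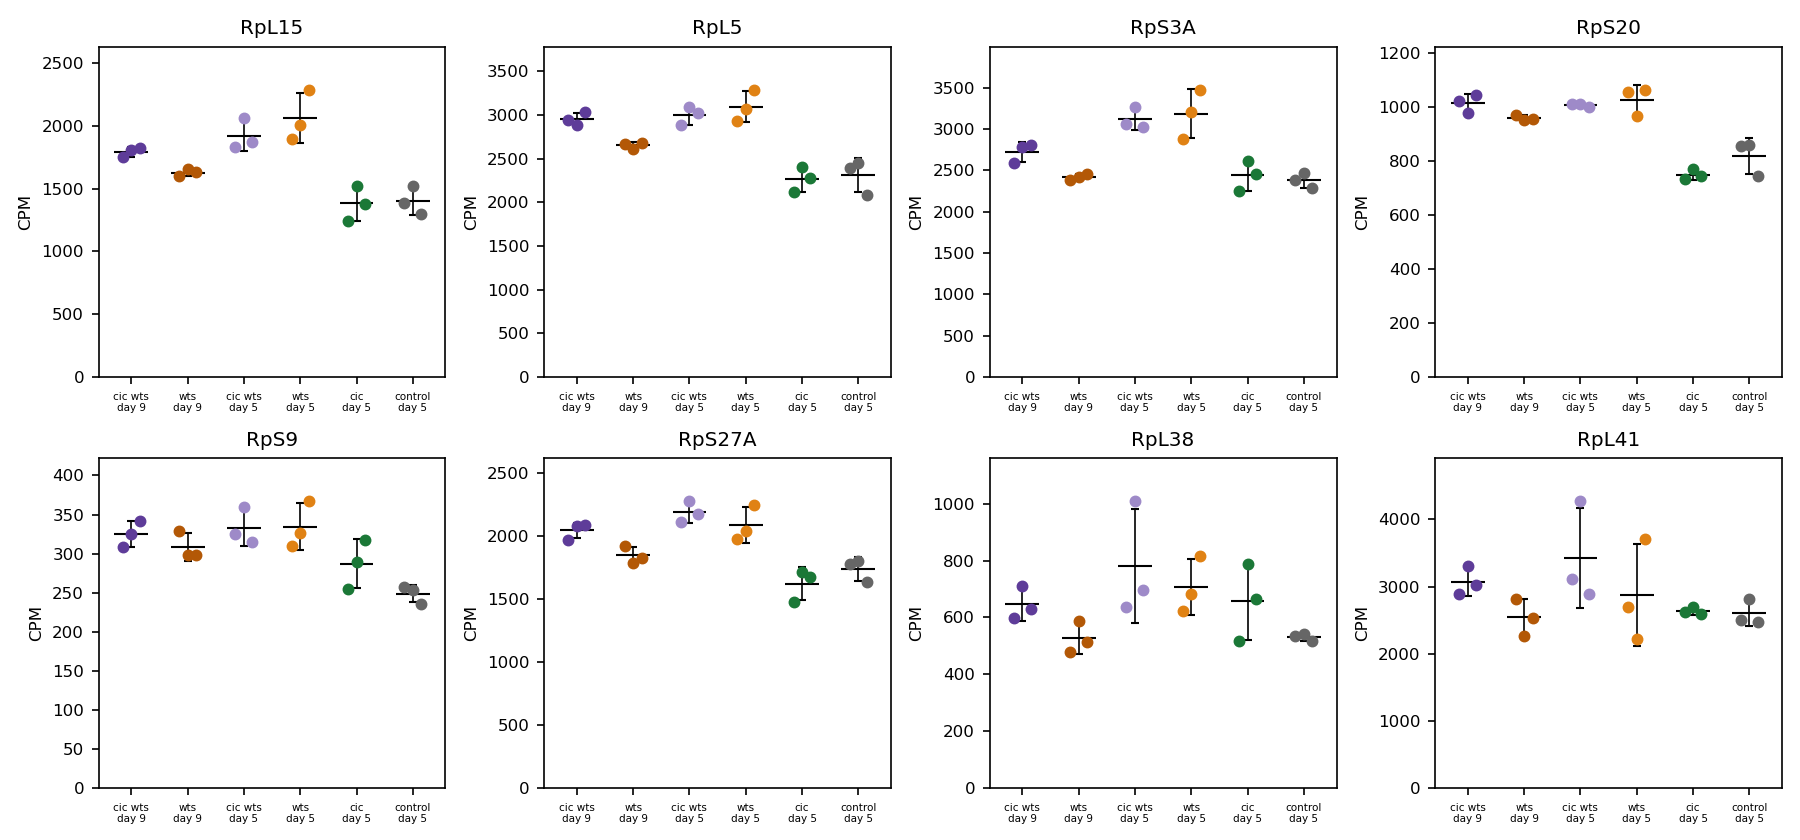
CPM of 8 ribosomal protein genes in each library, by group; lines are group means and bars are SD (n = 3). RpL15, RpL5, RpS3A, RpS20 and RpS27A are higher in all wts and cic wts libraries of day 5 than in any cic or control library of day 5, while in RpL38 and RpL41 replicate 2 of cic wts at day 5 stands above the others at 1010 and 4274 CPM.

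No member was called when loss of cic was added to loss of wts. In cic wts against wts discs at day 5, 0 of the 83 genes were called either way by edgeR or DESeq2, 0 had an unadjusted p under 0.05, and 0 had groups that did not overlap. Of all 9004 genes tested, 1.04% were called higher and 1.87% lower, and 9.05% and 11.1% did not overlap. An edgeR unadjusted p under 0.05 was found in 1370 of them. At day 9, edgeR and DESeq2 each called 0 of the 83 genes in cic wts against wts discs. By edgeR, 2.89% of all genes tested were called higher and 4.01% lower. An edgeR unadjusted p under 0.05 was found in 4 of the 83 genes, against 1790 of all 9004 genes tested. The family median was 0.09 at day 9, with 81 of 83 values above 0, and all cic wts libraries lay above all wts libraries in 15 genes and below them in 0, against 15% and 15.4% of all genes tested. For the interaction of cic with wts at day 5, edgeR and DESeq2 each called 0 of the 83 genes. By edgeR, 0.744% of all genes tested were called higher and 1.2% lower. In 1 member, RpS3, the edgeR unadjusted p was under 0.05 (0.0334), against 1309 of all 9004 genes tested.

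Age was compared within the wts and cic wts genotypes. In wts discs, 0 of the 83 genes rose and 5 fell at day 9 against day 5, against 4.19% of all genes tested called higher and 2.7% called lower. The family median was -0.12, against -0.02 over all genes tested. In 26 genes all day 9 libraries lay below all day 5 libraries and in 0 genes above, against 16.9% and 17.5% of all genes tested. RpS3A had 2376, 2417 and 2451 CPM at day 9, against 2880, 3203 and 3470 CPM at day 5, and fell by 0.40 on the log2 scale (SE 0.08; edgeR adjusted p = 0.00803). RpL15 had 1598, 1657 and 1631 CPM at day 9 and fell by 0.34 (SE 0.09; edgeR adjusted p = 0.0311). The other 3 were RpL34a, RpL10 and RpL21, with log2 fold changes of -0.31, -0.30 and -0.30.

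The age calls depended on single libraries. The count was 0 without wts day 5 replicate 3, 1 without wts day 9 replicate 2, wts day 9 replicate 3 or wts day 5 replicate 2, and none of the 5 calls held in every fit that left out a library. In cic wts discs at day 9 against day 5, edgeR called 0 of the 83 genes and DESeq2 called 3, all lower. By edgeR, 6.06% of all genes tested were called higher and 4.54% lower. An edgeR unadjusted p under 0.05 was found in 4 of the 83 genes, against 2419 of all 9004 genes tested. The family median was 0.01. All day 9 libraries lay above all day 5 libraries in 1 gene and below them in 6, against 17.2% and 14.7% of all genes tested. The difference between the genotypes in the change with age was called in 0 of the 83 genes by edgeR and by DESeq2. By edgeR, 0% of all genes tested were called. An edgeR unadjusted p under 0.05 was found in 0 of the 83 genes, against 593 of all 9004 genes tested. The family median of that difference was 0.12, with 80 of 83 values above 0.

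Most members moved together from library to library. Over the 18 libraries, which differ in group and depth, the correlation of a gene's log2 level with the median of the other members was 0.81 in the median over 83 genes and above 0.5 in 75 of them. RpS7, RpL12 and RpL14 followed the family most closely, at 0.953, 0.952 and 0.94. The lowest values were -0.488 for RpS19b, -0.187 for RpS5b and -0.073 for RpS15Ab, each the lesser-used copy of a duplicated gene. RpS19b and RpS5b had at most 45 and 20 counts in any library, so little can be read from their values. The next lowest were 0.129 for RpL38, 0.308 for RpL41 and 0.337 for RpL39.

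RpL38, RpL39 and RpL41 encode some of the shortest proteins of the large subunit. RpL38 had 636.5, 1010 and 695.2 CPM in day 5 cic wts discs, against 535.2, 543.6 and 517.3 CPM in control discs (log2 fold change 0.55 ± 0.17, SE; edgeR adjusted p = 0.0274). RpL39 had 803.5, 1109 and 877.3 CPM in cic wts discs, against 733.6, 690.2 and 630.4 CPM in control discs (0.44 ± 0.13, SE; edgeR adjusted p = 0.0217). RpL41 had 3115, 4274 and 2882 CPM in cic wts discs, against 2508, 2821 and 2477 CPM in control discs, and was not called (0.40 ± 0.16, SE; edgeR adjusted p = 0.0926). Replicate 2 was the highest of all 18 libraries in each of these genes, and it is the library with fat body genes. Without it the log2 fold changes were 0.33 for RpL38 and 0.30 for RpL39, and neither was called. Replicate 3 of wts discs at day 5 was the next highest, at 817.1 CPM of RpL38, 1010 CPM of RpL39 and 3711 CPM of RpL41.

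**Figure D5:**
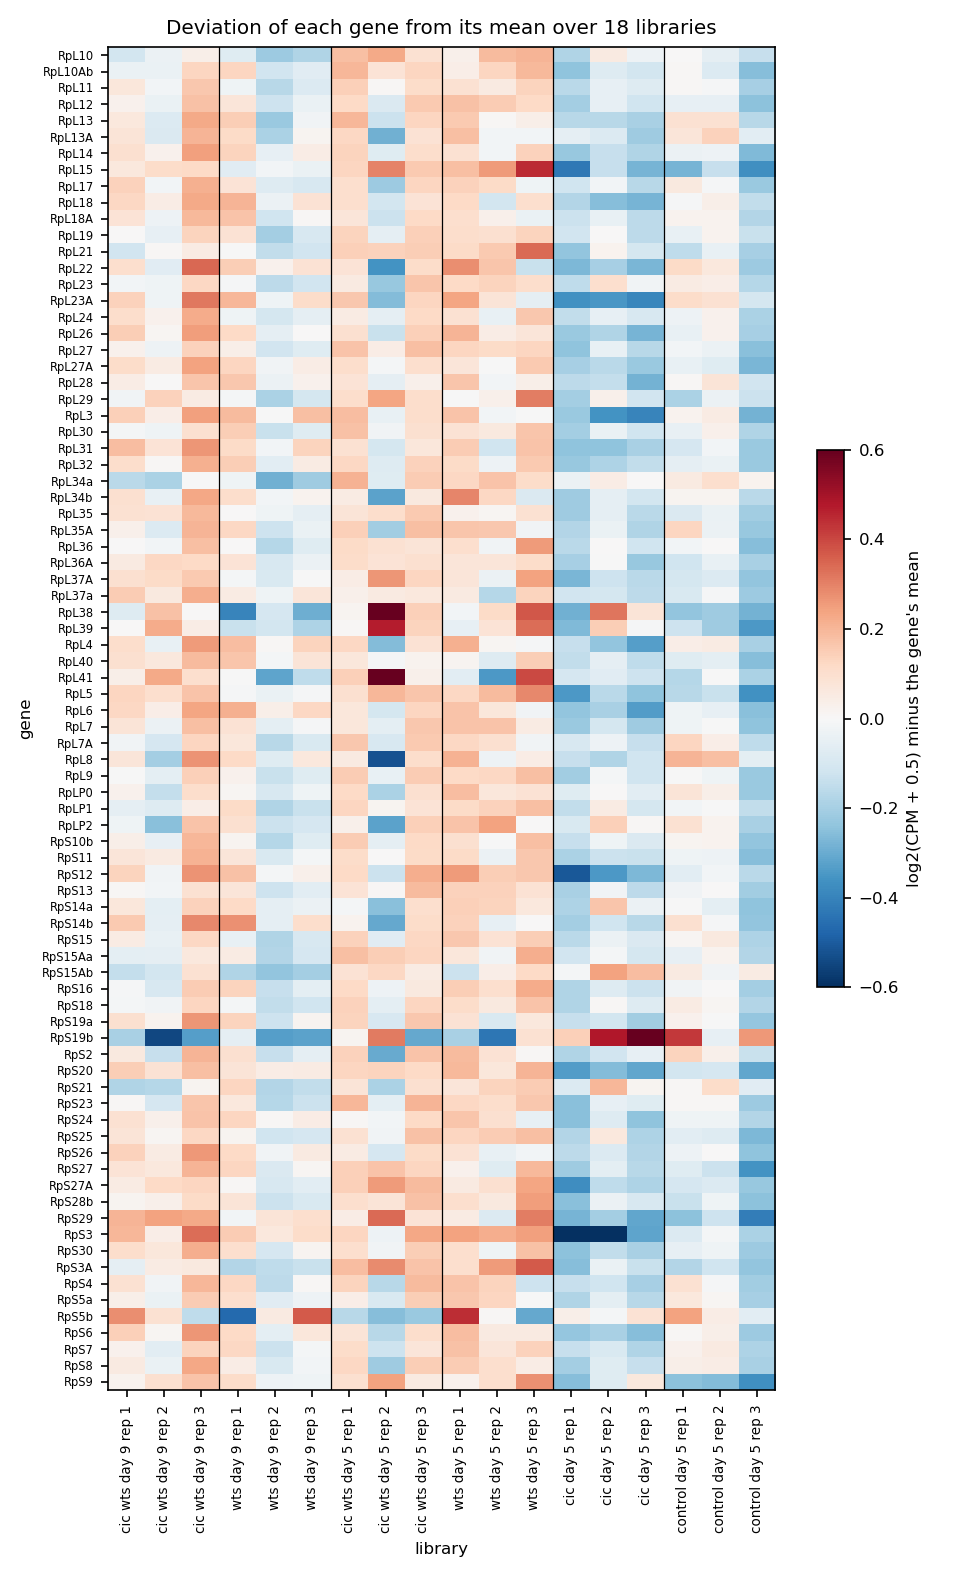
Log2(CPM + 0.5) of 82 of the 83 tested ribosomal protein genes (rows) in each library (columns, grouped), as the difference from that gene's mean over the 18 libraries; red is above and blue below the mean, and the colour scale ends at 0.6 either way. The cic libraries, control replicate 3 and wts day 9 replicate 2 are blue over most rows, RpS3 is darkest in cic replicates 1 and 2, and RpL38, RpL39 and RpL41 are darkest red in cic wts day 5 replicate 2.

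Members with functions of their own on the ribosome came next. The stalk proteins RpLP0, RpLP1 and RpLP2, which recruit the elongation factors that hydrolyse GTP, were called in no comparison. In wts against control discs their log2 fold changes were 0.14, 0.20 and 0.17. RpS6, whose protein is phosphorylated by S6 kinase, had 2168, 1977 and 1979 CPM in wts discs, against 1913, 1951 and 1637 CPM in control discs (0.15 ± 0.09, SE; edgeR adjusted p = 0.249). Its lowest wts library was still above the highest control library. Of the genes whose products are made as fusions to ubiquitin, RpS27A rose in wts and in cic wts discs, by 0.26 ± 0.07 and 0.33 ± 0.07 (SE; edgeR adjusted p = 0.0213 and 0.00445), and RpL40 was called in no comparison. RpL40 had 1229, 1150 and 1344 CPM in wts discs, against 1153, 1164 and 1017 CPM in control discs, and these overlapped.

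Drosophila carries a second copy of several of these genes, and the files list 9 such pairs. In 6 of them 1 copy had nearly all the counts. RpL10Aa had 0 counts in every library, where RpL10Ab averaged 1690 CPM over the 18 libraries. RpL37b, RpS10a and RpS28a averaged 0.00294, 0.0505 and 0.011 CPM, while RpL37a, RpS10b and RpS28b averaged 1450, 1230 and 1110 CPM. RpS5b and RpS19b, copies known for their use in the ovary and testis germline, averaged 0.647 and 0.899 CPM, against 1860 CPM of RpS5a and 1390 CPM of RpS19a. Among germline markers, zpg was at 0 CPM in most libraries and vas had 0.1676 to 1.222 CPM over all of them. The summed germline list, 282 to 416.9 CPM, was mostly ovo, a gene that the epidermis also uses, at 243 to 385.5 CPM.

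In the other 3 pairs both copies were measured. RpS15Aa took 91.4% to 93.9% of its pair's summed CPM over the 18 libraries, RpS14a took 63.5% to 70.3%, and RpL34a took 21.3% to 28%. RpS14a and RpS14b are adjacent and nearly identical copies on X (X:7933742-7934677 and X:7934898-7935792), so the split of reads between them is uncertain. RpL34a, averaging 215 CPM, fell with age in wts discs: it had 210.1, 175.3 and 184.3 CPM at day 9, against 233, 241.1 and 230.8 CPM at day 5 (log2 fold change -0.31 ± 0.08, SE; edgeR adjusted p = 0.031). The groups did not overlap, but the call held in 1 of the 6 fits that left out 1 library (edgeR adjusted p up to 0.124). RpL34b was not called, and whether the 2 copies differed in their change with age was not tested.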

How the data were processed

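For 18 RNA libraries the authors deposited raw counts per gene in 1 table. The submitters' processing notes name Bowtie2, TopHat2, HTSeq, DESeq2 and the dm6 build, with versions, roles and the strand setting not given in the sources used here. Of the 31 samples in the series, 13 are ChIP samples and were not analysed here. Groups and replicate numbers follow the labels. Tests were run with edgeR 4.0.16 in R 4.3.3: TMM factors, the filterByExpr filter, and a quasi-likelihood F test in 1 fit of all 18 libraries with a coefficient per group. In each of 10 comparisons p-values were adjusted over 9004 genes. CPM uses TMM-scaled library sizes, and the F statistic gave the standard errors. The biological coefficient of variation was 0.185. Replicates differed beyond sampling noise in every group, with chi-square per degree of freedom of 11.1 to 64.

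The members and the gene lists were chosen with earlier results of these data known. Members named were those called without overlap between libraries (the largest changes), those farthest from the family median, RpS3 and other members on 3R, RpS12, RpS6, the stalk and ubiquitin fusion genes and gene copies. RefSeq's gene table, Release 6, matched 85 members by symbol and 2 by synonym, and gave coordinates. Alternatives were RLE and total-count scaling, TMM without the family, no low-count filter, DESeq2 1.42.0, a replicate block, only the compared libraries, each library left out, and 2 further pairs of libraries left out that were chosen after seeing the data. 1 member is not reported by name here. The procedure was also run on counts simulated from its own fitted model, a setting without the libraries that stood apart.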

Additional observations from a re-analysis of the deposited data

How the results depend on the processing

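The family median kept its sign under every alternative in wts against control, cic wts against control and cic wts against cic discs. The number of called genes moved more. The share of all genes called was not counted in any alternative fit, here or above, so these counts have no background beside them. Total-count scaling gave 7 genes in wts against control and 19 in cic wts against cic. Without a low-count filter these were 8 and 21, and 2 for age in wts discs. With only the compared libraries in the fit, the control comparisons gave 0 genes for cic, 8 for wts and 5 for cic wts, and cic wts against cic gave 11. DESeq2 gave 2 in cic against control and 3 for age in cic wts discs. TMM factors without the family changed no call among 85 gene results.

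Leaving out 1 library gave 0 to 1 genes in cic against control, 5 to 12 in wts against control, 7 to 17 in cic wts against control, 15 to 42 in cic wts against cic, 0 to 4 for age in wts discs and 0 to 1 for age in cic wts discs. Medians then ranged from -0.12 to -0.02, 0.11 to 0.21, 0.07 to 0.19 and 0.18 to 0.25 in the first 4 of these. The other counts were 0 throughout. Pairs of libraries chosen after seeing the data were also left out. Without control replicate 3 and cic wts day 5 replicate 1 the control comparisons gave 0 genes for cic, 6 for wts and 10 for cic wts, and cic wts against cic gave 19. Without control replicate 3 and cic wts day 5 replicate 2 they were 2, 6 and 4 against control and 1 for age in cic wts discs, and the median of the interaction of cic with wts was 0.14. RpS12, not called with age in cic wts discs (log2 fold change 0.05), was then -0.039, and lay between -0.042 and 0.12 with 1 library left out. In cic wts against wts at day 9 it lay between -0.0062 and 0.14. The cause of these shifts was not tested.

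Replicate numbers are shared between groups, and the labels do not say what they mark. Deviations from group means correlated above 0.1 in 15 of 45 same-numbered pairs (median 0.05) and in 18 of 90 other pairs (median -0.04), and 12 of 18 libraries correlated best with their own number, a hint of pairing in the data that was not uniform enough to treat the libraries as paired. With the replicate block the control comparisons gave 1 gene for cic, 13 for wts and 16 for cic wts, with 30 in cic wts against cic and 5 for age in wts discs.

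The smallest change called in any member was 0.20 on the log2 scale, with 3 libraries per group.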

Other observations

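Other groups of genes for protein synthesis were counted in the same comparisons. Of 72 tested mitochondrial ribosomal protein genes, 1 rose and 1 fell in wts against control discs, where 10% and 8.16% of all genes tested did, with a median log2 fold change of 0.08. At day 9 against day 5 in wts discs 0 rose and 9 fell, where 4.19% and 2.7% of all genes tested did, with a median of -0.21. In cic wts discs 0 rose and 8 fell with age, with a median of -0.15, where the median over the cytosolic family was 0.01. Of 42 tested ribosome biogenesis genes, 2 rose and 2 fell in wts against control discs, with a median of -0.13. At day 9 against day 5, 0 rose and 3 fell in wts discs, with a median of -0.19, and 0 rose and 15 fell in cic wts discs, with a median of -0.27, where 6.06% and 4.54% of all genes tested rose and fell. Among the 15 were RpI1, the largest subunit of RNA polymerase I, which fell by 0.52 (SE 0.11; edgeR adjusted p = 0.0076), and Nop56, a core protein of box C/D snoRNPs, which fell by 0.39 (SE 0.09; edgeR adjusted p = 0.0166).

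The growth regulator dm, which encodes Drosophila Myc, had 277.9, 325.3 and 283.7 CPM in cic wts discs and 290.9, 268.5 and 289.4 CPM in wts discs at day 5, against 172.3, 191.7 and 173.9 CPM in control discs. All 6 wts and cic wts libraries lay above the control libraries, and the log2 fold changes were 0.72 ± 0.09 and 0.66 ± 0.09 (SE; edgeR adjusted p = 4.64e-05 and 0.000184). Of 16 growth regulators tested, 3 were called higher and 0 lower in each comparison. Of all genes tested, 11.3% were called higher and 11.2% lower for cic wts, and 10% and 8.16% for wts. The cic discs had 208.9, 199.5 and 210.4 CPM of dm, also above every control library, but dm was not called there. Rack1, a scaffold protein bound to the small subunit that the symbol rule does not take, had 2524, 2235 and 2314 CPM in wts discs, against 1975, 1992 and 1693 CPM in control discs (0.32 ± 0.10, SE; edgeR adjusted p = 0.041).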
